A study of Glycine max with 4 samples.

Results

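Acyl carrier proteins are small proteins, with plastid and mitochondrial forms, that hold the growing acyl chain during fatty acid synthesis. In soybean, 4 genes that encode plastid forms were examined here as targets of GmWRI1. They were a pair of *ACP4* copies (Glyma.15G098500 and Glyma.20G230100) and a pair of *ACP3* copies (Glyma.03G242600 and Glyma.19G240100). The 4 genes were found by the overlap of the deposited peaks with 4 intervals that enclose sites listed by the study. The bounds of these intervals equal the outer bounds of the deposited peaks that met there, so overlap was fixed in advance. These genes make up 4 of the 110 genes in fatty acid or triacylglycerol metabolism (FAT genes) with a listed site. Their peaks were 4 of 22982 in replicate 1 and 4 of 20027 in replicate 2. Because the study listed these sites on the same samples, the presence of a peak at them is a description and not independent evidence.

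The study mapped GmWRI1 occupancy by chromatin immunoprecipitation and sequencing (ChIP-Seq) in soybean embryos. The 2 ChIP samples and the 2 input samples (total chromatin) were labelled as 2 biological replicates. All 4 came from cv Williams 82, from seeds 6 to 7 mm long, whose embryos were in early maturation (em). The labels name no transgene or mutation in any group. Tissue was fixed in 1% formaldehyde, chromatin was sheared to 100 to 500 bp, and ChIP samples received 3 µg of a GmWRI1 antibody made with a peptide. Per the study's methods, this antibody recognises both GmWRI1-A and GmWRI1-B, so a peak cannot be assigned to either protein. Nothing in the sources used here says how many plants or embryos were pooled in a sample. The inputs entered only through the authors' peak calling, and no check of the embryo stage by marker genes can be made from peak lists.

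WRINKLED1 is a transcription factor of the AP2 family that in Arabidopsis seeds raises the expression of genes for late glycolysis and plastid fatty acid synthesis. In that pathway, malonyl groups are first moved onto acyl carrier protein. Ketoacyl-ACP synthases, reductases and a dehydratase then lengthen the chain while it stays bound to the carrier by a phosphopantetheine arm. A desaturase and thioesterases act on the finished acyl-ACP before the fatty acid leaves the plastid. Each cycle therefore passes through the carrier protein, which several small nuclear genes encode in plants.

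GmWRI1 peaks at the 4 *ACP* genes were among the tallest in both lists. The copy with the higher mean of each pair exceeded its partner in both replicates, by at most 1.41 times. The strength of a peak is its fold enrichment, the authors' ratio of ChIP reads at the summit to the local background expected from input, with 1 added to each. At Glyma.15G098500, fold enrichment was 32.5 in replicate 1 and 53.8 in replicate 2 (mean 43.1 ± 15.1, SD, n = 2). At Glyma.20G230100, its partner in the *ACP4* pair, it was 30.6 and 38.2 (34.4 ± 5.36). At Glyma.03G242600, an *ACP3* copy, it was 36.7 and 37.7 (37.2 ± 0.697). At Glyma.19G240100, its partner in the *ACP3* pair, it was 26.0 and 33.4 (29.7 ± 5.24). All 8 values lay far above the median of 5.03 over the 15181 regions in which peaks of both replicates met. In order of the mean, Glyma.15G098500 came first, then Glyma.03G242600, Glyma.20G230100 and Glyma.19G240100, but the replicate values of each neighbouring pair in this order overlapped. Replicate 1 alone placed Glyma.03G242600 first, and replicate 2 alone placed Glyma.15G098500 first. Glyma.19G240100 was the lowest of the 4 in each replicate.

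**Figure D1:**
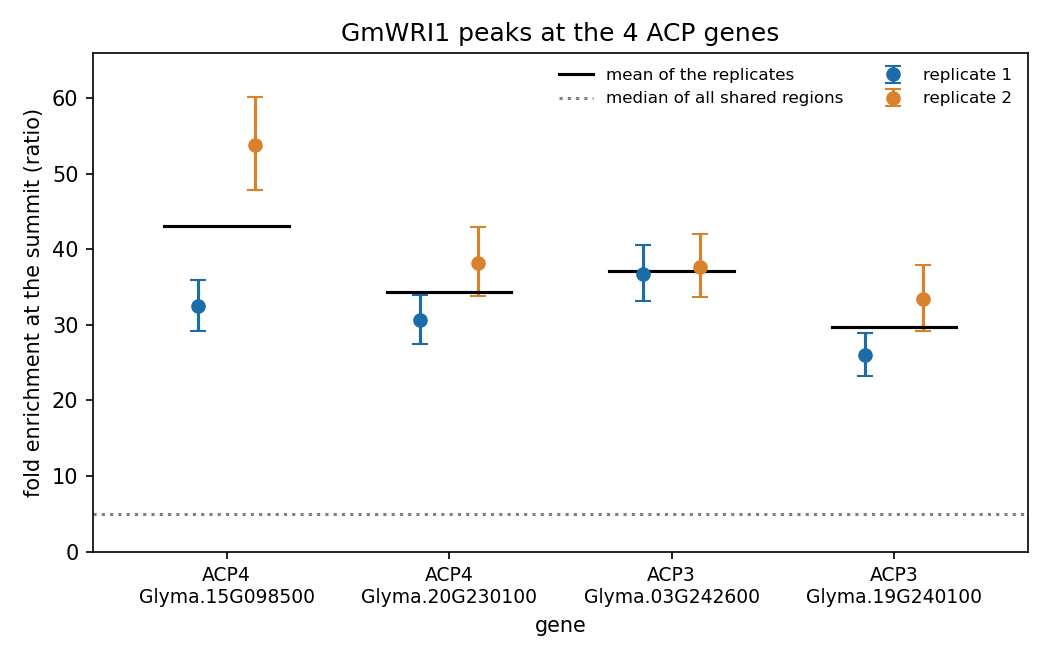
Fold enrichment at the summit (vertical axis, a ratio) at the 4 *ACP* genes (horizontal axis), in replicate 1 (blue) and replicate 2 (orange), with 95% exact Poisson intervals of the summit reads and the mean of both replicates as a black line. Every value lies above the dotted line, the median of 5.03 over all shared regions, and Glyma.15G098500 has the widest gap between replicates, 32.5 against 53.8.

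All 4 genes had peaks among the strongest 5% of both lists by fold enrichment. Of all shared regions, 5.94% passed the same rule. Ranked by −log10 p or by summit reads in place of fold enrichment, the count was again 4, against 6.36% and 5.76% of shared regions. The entry value of this class was 14.8 in replicate 1 and 18.4 in replicate 2, so that the lowest member value in each replicate, at Glyma.19G240100, was well inside it. Among shared regions ranked by mean fold enrichment, Glyma.15G098500 ranked 138 (top 0.909%), Glyma.03G242600 ranked 218 (1.44%), Glyma.20G230100 ranked 271 (1.79%) and Glyma.19G240100 ranked 382 (2.52%). Within the 105 FAT genes whose listed site was covered by peaks of both replicates, the same 4 genes took places 17, 31, 41 and 51. They were thus spread from the upper part to near the middle of these FAT genes and did not lead them. The strongest 5% of both lists also held 11 of the 18 covered genes of enzymes that act on acyl-ACP. This class therefore does not set the *ACP* genes apart from related genes. Of the 4 *ACP* genes, only Glyma.15G098500 was among the strongest 1% of both lists by fold enrichment, a class with 1.07% of shared regions. It entered narrowly in replicate 1, at the top 0.979%. This result depended on the measure. By summit reads, Glyma.03G242600 (top 0.248% and 0.374%) and Glyma.20G230100 (0.687% and 0.939%) also passed in both replicates, as they did by −log10 p. The share of shared regions past 1% by these measures was not computed.

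The reads behind these values set their precision. Fold enrichment and the deposited −log10 p both depend on the reads at the summit and on the local background, so both quantities could be solved for each peak. Glyma.15G098500 had 367 reads at its summit in replicate 1 and 301 in replicate 2. Glyma.20G230100 had 346 and 275 reads, Glyma.03G242600 had 390 and 328, and Glyma.19G240100 had 320 and 231. In this measure the order of the 4 genes was the same in both replicates, with Glyma.03G242600 highest and Glyma.19G240100 lowest. Over whole lists, summit reads had a median of 37 (20 to 420) in replicate 1 and 26 (14 to 388) in replicate 2. The peak at Glyma.03G242600 therefore reached 92.9% of the highest read count of replicate 1 and 84.5% of that of replicate 2. Counting error alone gave 95% exact Poisson intervals for the fold enrichment at Glyma.15G098500 of 29.2 to 35.9 in replicate 1 and 47.9 to 60.2 in replicate 2. Reads are not independent molecules where duplicates were kept, so all intervals given here cover counting error only.

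The local background was less precisely known than the summit reads. It is the highest of several estimates from input, and its values fell on regular steps, each the worth of 1 input read in a window. Background values at such a step or at the lowest level of the library made up 100% of peaks in replicate 1 and 99.9% in replicate 2, within 0.0005 reads. With the peak caller's default windows of 1 kb and 10 kb, the third window came to 210 bp in replicate 1 and 194 bp in replicate 2. At Glyma.15G098500 the background was 10.3 reads in replicate 1, equal to 51 input reads over 1 kb, and 4.61 reads in replicate 2, equal to 40 input reads over 1 kb. At Glyma.20G230100 it was 10.3 and 6.23 reads, equal to 51 and 54 input reads over 1 kb. At Glyma.03G242600 it was 9.65 and 7.73 reads, and rested on 10 input reads in the window of 210 bp and 13 in that of 194 bp. At Glyma.19G240100 it was 11.4 and 5.95 reads, from 56 input reads over 1 kb and 10 in the window of 194 bp. At all 4 genes the ChIP reads thus outnumbered the input reads behind the background, by which they were divided, so that the input counts were the less precise of the pair.

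The first comparison asked whether the *ACP4* copies of the pair were occupied to the same degree. The fold enrichment at Glyma.15G098500 was 1.06 times that at Glyma.20G230100 in replicate 1 and 1.41 times in replicate 2. The summit reads differed little, with ratios of 1.06 (95% exact conditional interval, 0.913 to 1.23) and 1.09 (0.926 to 1.29). The backgrounds were equal in replicate 1, and that at Glyma.15G098500 was 0.741 times that at Glyma.20G230100 in replicate 2. In replicate 2 the ratio of backgrounds was therefore further from 1 than the ratio of ChIP reads. The mean log2 difference was 0.29 (SD 0.29 between replicates), and the values of the copies overlapped. An exact two-sided permutation test gave p = 0.667 for this difference. With 2 values against 2 this test cannot go below 0.333. Of the ratio of reads to background in replicate 2, 1.48, the interval was 1.25 to 1.75 when the background was taken as known. It widened to 0.951 to 2.30 when the counting error of the input reads was included (approximate, on the log scale).

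The second comparison asked the same of the *ACP3* copies. The fold enrichment at Glyma.03G242600 was 1.41 times that at Glyma.19G240100 in replicate 1 and 1.13 times in replicate 2. Here the summit reads differed in both replicates, with ratios of 1.22 (1.05 to 1.42) and 1.42 (1.20 to 1.69). The background at Glyma.03G242600 was lower than that at Glyma.19G240100 in replicate 1, 9.65 against 11.4 reads, and higher in replicate 2, 7.73 against 5.95 reads. The ratio of backgrounds in replicate 2 was 1.3. The mean log2 difference in fold enrichment was 0.34 (SD 0.23 between replicates). The replicate values of the copies did not overlap, as was also the case in 44.4% of 45 other pairs of duplicated FAT genes, and the exact permutation test gave p = 0.333, the smallest it can give. The ratio of reads to background was 1.43 (1.23 to 1.67) in replicate 1 and 1.09 (0.920 to 1.30) in replicate 2, with the background taken as known. With the input reads included, the intervals became 0.720 to 2.85 and 0.471 to 2.53, so that both spanned a ratio of 1.

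**Figure D2:**
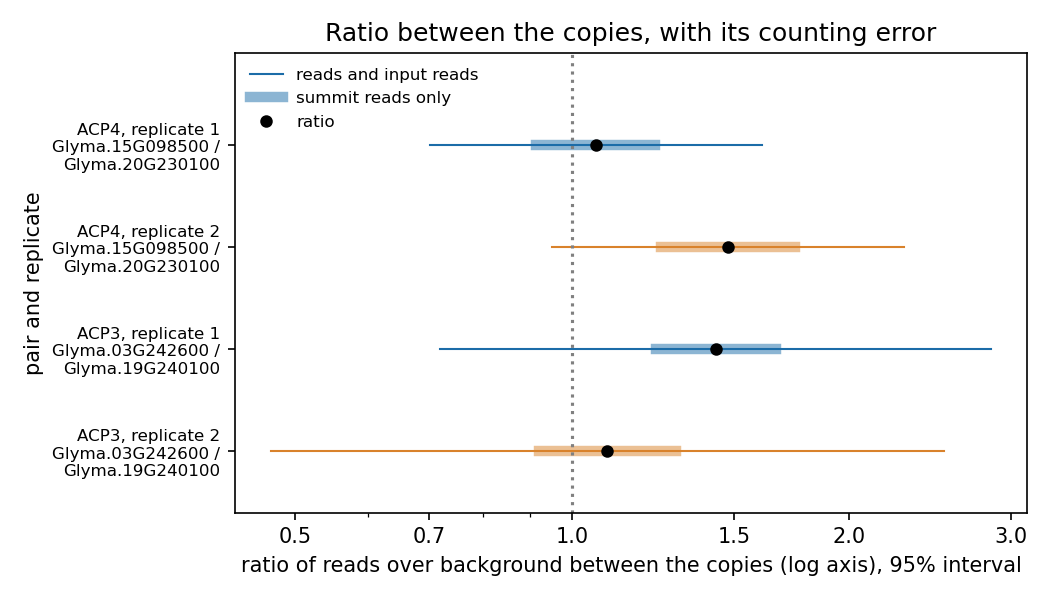
Ratio of reads over background between the copies of each pair (horizontal log axis), by pair and replicate (rows), with 95% intervals for the summit reads alone (thick bars) and with the input reads behind the background (thin lines). The thick bars of *ACP4* in replicate 2 (1.25 to 1.75) and *ACP3* in replicate 1 (1.23 to 1.67) lie above the dotted line at 1, whereas all 4 thin lines cross it.

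The *ACP4* pair was also set against the *ACP3* pair, with 1 value for each pair and replicate. The mean log2 fold enrichment of the *ACP4* copies exceeded that of the *ACP3* copies by 0.03 in replicate 1 and 0.35 in replicate 2. The mean difference was 0.19 (SD 0.23 between replicates), and the exact permutation test gave p = 0.667. Adjusted by the Benjamini-Hochberg method over these 3 comparisons, each permutation p was 0.667. None of the 3 differences passed a threshold of 0.05, which this design cannot reach.

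Other duplicated FAT genes gave a scale for these differences. Genes with a covered site that share an Arabidopsis homolog formed 45 pairs from 24 homologs without any of the 4 *ACP* genes, and pairs of the same homolog are not independent. Their copies differed by a median of 0.32 on the log2 scale (quartiles 0.13 and 0.70). In 34 of these pairs both copies were among the strongest 5% of both lists, as in the *ACP* pairs. There the median difference was 0.21, and 32.4% of pairs had no overlap. The *ACP4* pair differed by more than 20 and the *ACP3* pair by more than 21 of these 34, so that both lay near the middle of such pairs.

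Fold enrichment at all 4 genes was higher in replicate 2 than in replicate 1, as in 68.4% of shared regions. The log2 difference between replicates was 0.73 at Glyma.15G098500, 0.32 at Glyma.20G230100, 0.04 at Glyma.03G242600 and 0.36 at Glyma.19G240100. Across the 245 shared regions whose mean fold enrichment lay in the range of the 4 genes, the median was 0.33 and the SD was 0.32. Glyma.20G230100 and Glyma.19G240100 thus sat near the median of regions of like strength. Glyma.15G098500 lay in the upper part, since 26 of the 245 regions (10.6%) had a difference at least as large, and Glyma.03G242600 lay below the median. Summit reads, by contrast, were fewer in replicate 2 at each gene, at 0.820, 0.795, 0.841 and 0.722 times those of replicate 1 in the order above. The backgrounds differed more, and that of replicate 1 was 2.24 times that of replicate 2 at Glyma.15G098500 but 1.25 times at Glyma.03G242600. The ratio of the lowest backgrounds of both libraries was 1.89.

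**Figure D3:**
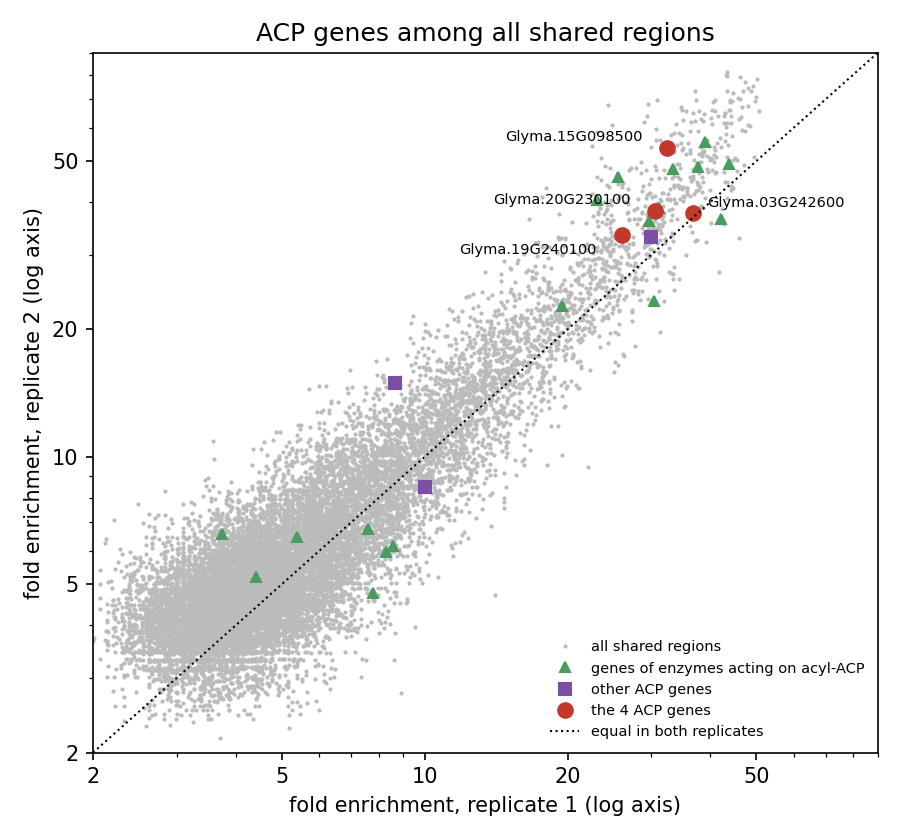
Fold enrichment in replicate 1 (horizontal log axis) and replicate 2 (vertical log axis) of 15181 shared regions (grey), the 4 *ACP* genes (red), other *ACP* genes (purple) and genes of enzymes that act on acyl-ACP (green). The 4 genes lie in the upper end of the cloud above the dotted line of equal values, with Glyma.03G242600 (36.7 and 37.7) nearest to it.

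The summits of the peaks at the 4 genes recurred within a few bases. Each of these peaks was wider than the median of its list, 395 bp in replicate 1 and 357 bp in replicate 2. Coordinates are given on Wm82.a2.v1. At Glyma.15G098500 the peak lay on chromosome 15 from 7661024 to 7661877 in replicate 1 and from 7661072 to 7661885 in replicate 2, with summits at 7661367 and 7661370. At Glyma.20G230100 it lay on chromosome 20 from 46422179 to 46422945 and from 46422119 to 46422916, with summits at 46422615 and 46422619. At Glyma.03G242600 it lay on chromosome 3 from 44055429 to 44056265 and from 44055473 to 44056224, with summits at 44055833 and 44055828. At Glyma.19G240100 it lay on chromosome 19 from 48809950 to 48810592 and from 48809982 to 48810567, with summits at 48810243 and 48810238. The summits of the replicates were therefore 3, 4, 5 and 5 bp apart. All 4 were thus within 10 bp and within 100 bp. Of all shared regions, 18.5% had summits within 10 bp and 76.1% within 100 bp, and the median distance was 40 bp. The distance went down with strength, since the 245 regions of like strength had a median of 9 bp. The summits lay at most 11 bp from the centre of the site of 100 bp that the study lists at each gene. The study drew these sites around peaks of the same samples, so this closeness is not independent evidence. The annotation of this build was not used here, so positions relative to start sites, exons and untranslated regions are not given.

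The copies differed in the shape of the peak. Widths were 854 and 814 bp at Glyma.15G098500, 767 and 798 bp at Glyma.20G230100, 837 and 752 bp at Glyma.03G242600, and 643 and 586 bp at Glyma.19G240100. The last was the narrowest of the 4 in each replicate, and its values did not overlap those of any other. Among the 245 regions of like strength, the median width was 899 bp in replicate 1 and 847 bp in replicate 2. Only 5.31% and 4.49% of them were as narrow as Glyma.19G240100. The summit lay 40.2% and 36.7% of the way along the peak at Glyma.15G098500, but 56.9% and 62.7% at Glyma.20G230100, in the direction of the chromosome. It lay near the middle at Glyma.03G242600 (48.3% and 47.3%) and Glyma.19G240100 (45.6% and 43.8%). The strand of the genes was not used here, so these offsets cannot be read as upstream or downstream.

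Other peaks within 10 kb of the 4 intervals were all lower than the peak at the *ACP* gene. Each list held 8 of them, which formed 10 regions, of which 6 had a peak of both replicates. All 4 genes had at least 1 such region, and the counts were 1, 1, 5 and 3 in the order of the genes above. Of all shared regions, 70.7% had another region within 10 kb, with a median of 1 and a mean of 1.48. Of the 6 neighbours with both replicates, 4 had a mean fold enrichment above the median of 5.03 over shared regions. At Glyma.15G098500 there was 1, from 7653488 to 7654815, with a fold enrichment of 6.48 in replicate 1 and 7.35 in replicate 2 (6.91 ± 0.609). The *ACP4* peak was 6.24 times higher in the mean. This region was broad, and its summits in the replicates differed in position, at 7654591 and 7653759. At Glyma.20G230100 the only other region adjoined the *ACP4* peak itself, from 46421529 to 46422080, with values of 4.28 and 3.31. The gap between the 2 peaks was 98 bp in replicate 1 and 373 bp in replicate 2. The summits of this region differed between replicates, at 46421926 and 46421607, and its replicate 2 peak had only 20 reads. A weak region on 1 side was thus called at this copy, and no second peak within 5 kb was called at the other 3 genes.

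Of the 4 genes, only Glyma.19G240100 had more than 1 other region with a peak of both replicates. Around Glyma.03G242600, 5 regions were called, but only 1 of them in both replicates. It lay from 44065762 to 44067387, was about 1.6 kb wide (1612 and 1586 bp), and had values of 8.10 and 7.36. In the study's list for the cotyledon stage, which precedes early maturation, Glyma.03G242800 is named at that position. The other 4 were called in a single replicate, with values from 2.53 to 3.53. Having 4 or more other regions within 10 kb was seen for 9.53% of shared regions. Around Glyma.19G240100, 3 regions were called, all in both replicates. The strongest lay from 48802371 to 48803161, with values of 8.71 and 7.94 (8.33 ± 0.546), which made it the highest of all 6 neighbours with both replicates. The *ACP3* peak was still 3.57 times higher. The others had values of 4.73 and 5.42 (48800753 to 48801271) and of 3.10 and 5.27 (48819521 to 48820148). In none of the 4 neighbourhoods did another peak come near the height of the peak at the *ACP* gene. The peak at Glyma.03G242600 itself is also listed, at the cotyledon stage, under the adjacent name Glyma.03G242500, described as a component of the transport protein particle (TRAPP), so the peak need not belong to *ACP3* alone.

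**Figure D4:**
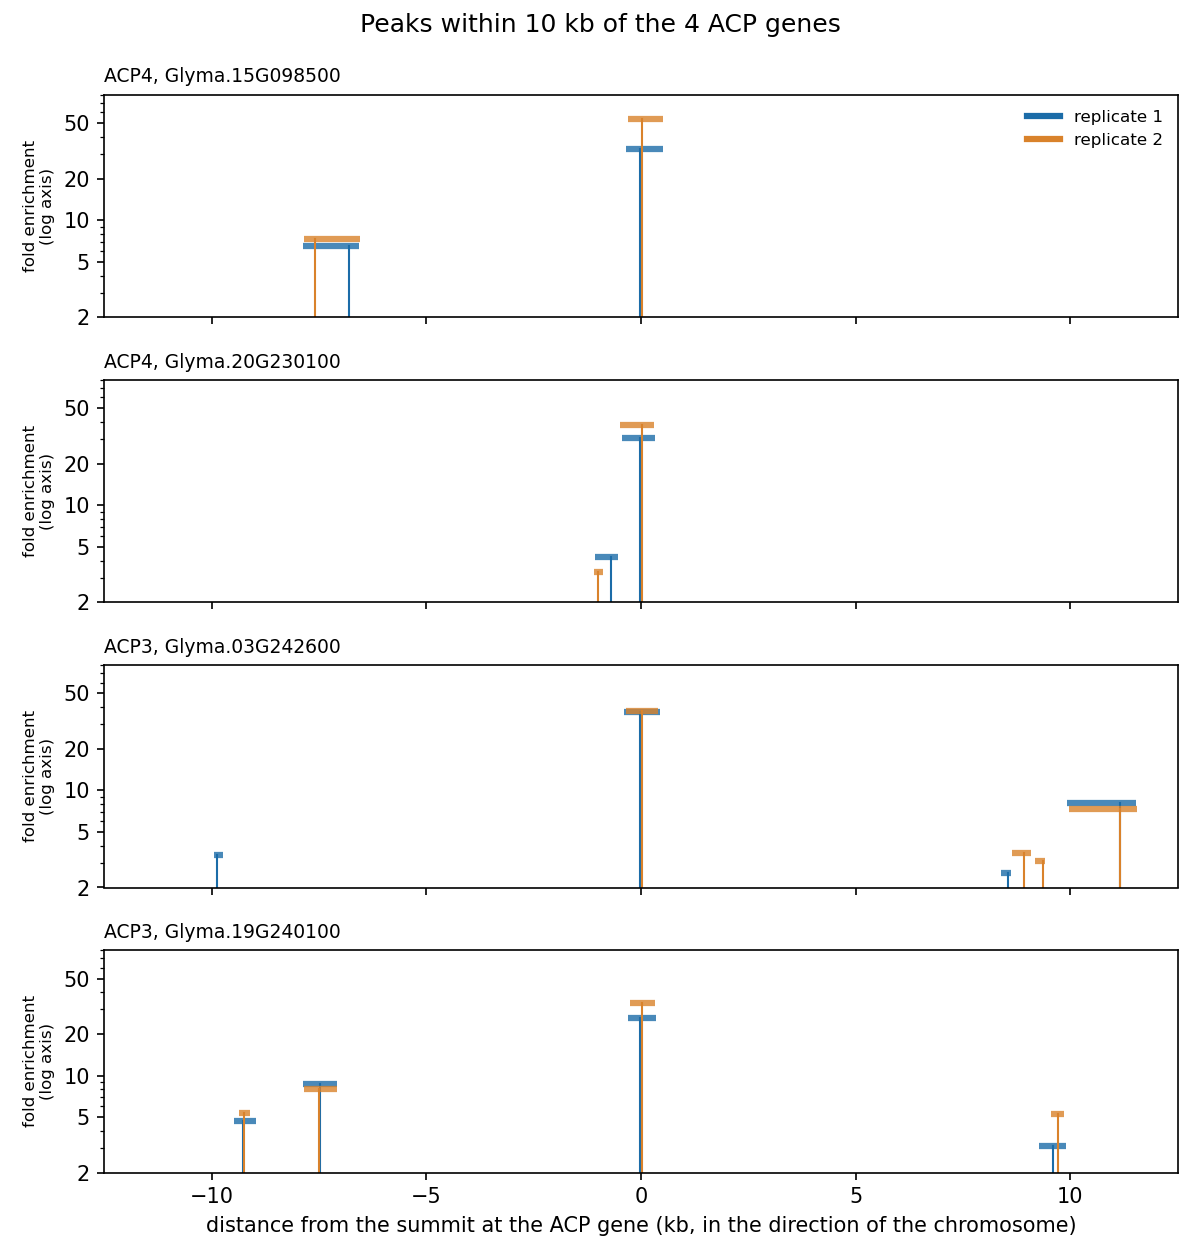
Peaks of replicate 1 (blue) and replicate 2 (orange) around each *ACP* gene, with distance from the summit in kb on the horizontal axis and fold enrichment on a vertical log axis. Horizontal bars span the width of a peak and thin lines mark its summit. The strongest neighbour, with values of 8.71 and 7.94, has its summits 7452 and 7522 bp before those at Glyma.19G240100.

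Soybean has further acyl carrier protein genes. The study's table of FAT genes names 17, of which 10 encode plastid and 7 mitochondrial forms. A position on the same build was at hand for 7 of them, and each of the 7 had a peak in both replicates. They were located through sites or regions that the study lists as bound, so this is a description and not independent evidence. Another *ACP4* gene, Glyma.13G214600, had values of 30.0 and 33.1 (31.5 ± 2.20), within the range of the 4 genes. It had 347 and 268 summit reads, close to those at Glyma.20G230100. One more *ACP4* gene, Glyma.05G201300, was located through the cotyledon stage list. It had values of 8.66 and 14.9 (11.8 ± 4.41) with 108 and 72 summit reads. The values at Glyma.15G098500 were 3.75 and 3.61 times those at Glyma.05G201300, and the values at Glyma.20G230100 were 3.53 and 2.56 times. The mitochondrial *mtACP2* gene Glyma.09G248500, also located through the cotyledon stage list, had values of 10.0 and 8.49 (9.26 ± 1.09) with 91 and 58 reads. Its peak was 451 and 459 bp wide, narrower than any at the 4 genes. The other 10 genes had no position at hand and were not analysed here.

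Covered genes of enzymes that act on acyl-ACP had means from 4.81 to 47.3, and the 7 located carriers had means from 9.26 to 43.1. The sets differ in size and 10 of the 17 carriers had no position, so these ranges cannot be compared as classes. The study's table gives an abbreviation for 9 such enzyme kinds. Of 19 genes of these kinds with a listed site, 18 were covered in both replicates, with a median fold enrichment of 29.3. They were ketoacyl-ACP synthases (*KASI*, *KASII*, *KASIII*), which join malonyl and acyl units, hydroxyacyl-ACP dehydratase (*HAD*), enoyl-ACP reductase (*ENR1*), malonyltransferase (*MCMT*), stearoyl-ACP desaturases (*FAB2*, *DES6*) and the acyl-ACP thioesterase *FatA*. No ketoacyl-ACP reductase was in this set, which was picked by abbreviation, so this does not mean that no such gene was bound. Genes of fatty acid synthesis without an abbreviation were left out, among them the strong Glyma.11G248000 (39.9 and 50.4) and Glyma.18G009200 (38.1 and 43.3). Both share the homolog AT1G24360 and are described only as NAD(P)-binding Rossmann-fold superfamily proteins. Their means, 45.1 and 40.7, do not enter the median and counts given here. The highest was *HAD* (Glyma.08G179900), with 38.9 and 55.6 (47.3 ± 11.8). The lowest was *DES6* (Glyma.14G121400), with 4.41 and 5.21 (4.81 ± 0.568). Among the 18 genes, 11 were in the strongest 5% of both lists, 9 reached the mean of Glyma.19G240100, and 2 exceeded that of Glyma.15G098500. The 7 remaining genes were all under 10, and they included single copies of *HAD*, *MCMT* and *KASI* whose other copies were strong. The 4 *ACP* genes held no such weak copy, but they are only part of the family, and Glyma.05G201300 was a weaker *ACP4* gene.

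**Figure D5:**
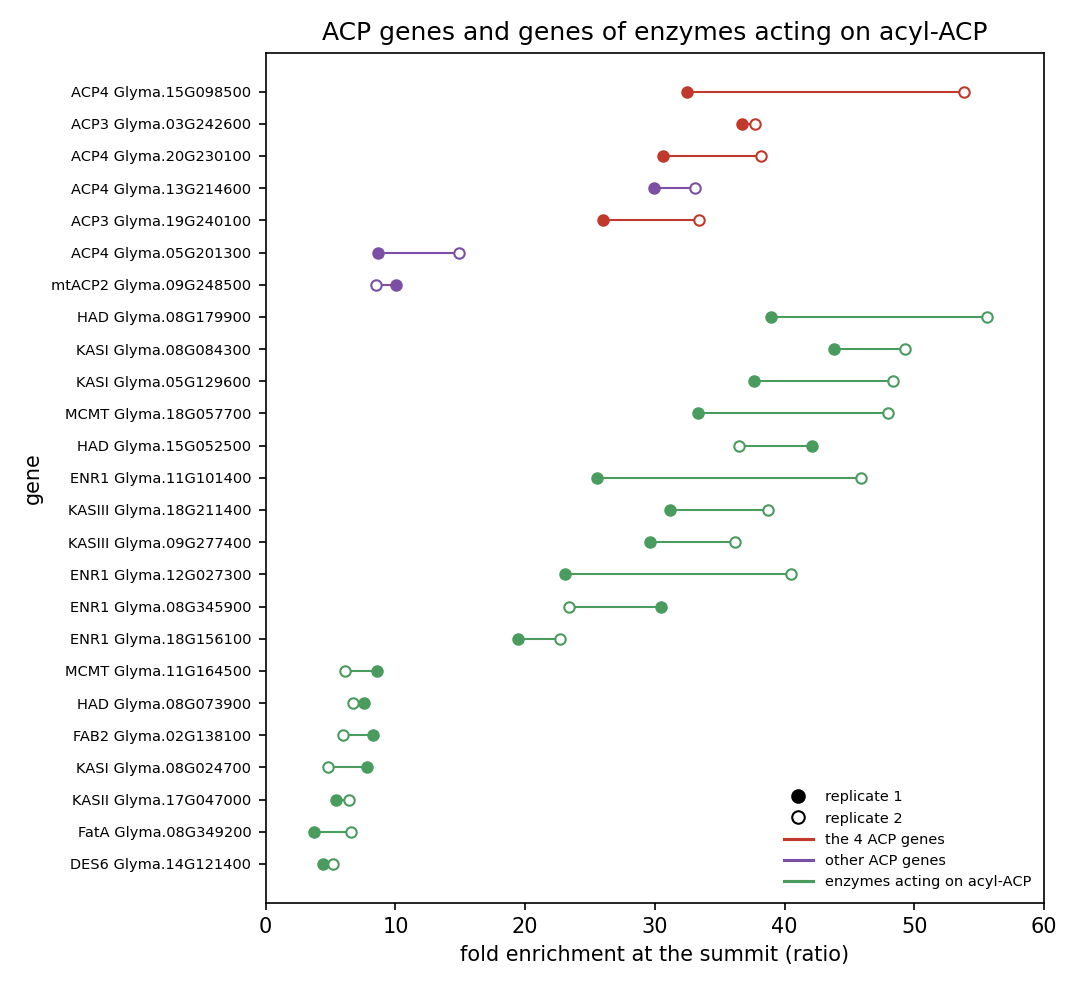
Fold enrichment (horizontal axis, a ratio) in replicate 1 (filled) and replicate 2 (open) of the 4 *ACP* genes (red), other *ACP* genes with a position (purple) and 18 genes of enzymes that act on acyl-ACP (green), each block sorted by its mean. The 4 genes span 26.0 to 53.8, within the upper group of enzyme genes, and 7 enzyme genes have means under 10.

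The genes most like each member in both replicates were sought among the other 101 FAT genes with a covered site. Likeness was the distance between log2 fold enrichments over the 2 samples, and small distances are common where many genes lie close together. Nearest to Glyma.15G098500 were Glyma.02G096800, for a glucose-6-phosphate dehydrogenase that supplies reductant (31.3 and 56.1, distance 0.079), and *MCMT* (Glyma.18G057700, distance 0.17). Nearest to Glyma.20G230100 were *KASIII* (Glyma.18G211400, 31.2 and 38.7, distance 0.034), the enzyme that starts the chain, and *BCCP2* (Glyma.13G057400, distance 0.068), a subunit of acetyl-CoA carboxylase. Nearest to Glyma.03G242600 were Glyma.18G023300, for a protein with a biotin/lipoyl attachment domain (38.6 and 38.7, distance 0.084), and Glyma.15G143100, for dihydrolipoamide dehydrogenase (distance 0.13). Nearest to Glyma.19G240100 were 2 genes for the acyltransferase subunit of pyruvate dehydrogenase, Glyma.10G215400 (23.8 and 31.7, distance 0.15) and Glyma.20G114500 (distance 0.17). Only 2 samples enter each distance, so it describes these libraries and not a shared control.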

How the data were processed

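Analysis was limited to the deposited peaks of both ChIP samples. Per the submitters' notes, the authors aligned reads with Bowtie 0.12.7 and called peaks with MACS2 (options and duplicate handling not given in the sources used here). MACS3 is the caller named in the study's methods, so the deposited lists need not be those on which the study counted genes. The deposited lists give, for each peak, the authors' fold enrichment (a ratio with a pseudocount of 1), −log10 p and −log10 q, the summit offset, and a score, which was not used. Peak names carry a q threshold of 0.01. The build, Wm82.a2.v1, was taken from the study's annotation note.

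Summit reads and background were solved for 100% of peaks (tolerance 0.001 on −log10 p), and input reads behind the background from its steps (tolerance 0.0005). Both steps were tested on simulated data. Regions were shared where peaks of both replicates met by at least 1 bp. The Arabidopsis homologs, symbols and positions of genes came from the study's tables, as links only. Named genes were the 4 members, other acyl carrier protein genes, enzymes acting on acyl-ACP, the 2 nearest genes for each member, and genes named at other peaks within 10 kb. The members and lists were chosen with earlier results of these data known, and the input reads, the pairing by replicate and the other duplicated genes were examined after seeing the data. Comparisons used exact two-sided permutation tests over samples, and counting intervals of 95%. Alternatives were a −log10 q of at least 10, 50% reciprocal overlap, summits within 100 bp, no pseudocount, the lowest background, −log10 p or summit reads as the measure, the strongest 1%, windows of 5 and 20 kb, and each replicate left out. Total reads, gene models, promoter motifs and protein sequences were not analysed here. Python 3.11.15, pandas 2.3.3, NumPy 2.4.6, SciPy 1.17.1 and matplotlib 3.10.9 were used.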

Additional observations from a re-analysis of the deposited data

How the results depend on the processing

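Of 52 values under an alternative, none reversed and 6 counts or means moved, whereas the differences between copies kept their sign but not their size. Ranked by fold enrichment, the count of the 4 genes among the strongest peaks fell to 1 when the strongest 1% replaced the strongest 5%. By summit reads or −log10 p, Glyma.03G242600 and Glyma.20G230100 stayed in that class as well. The 10 other regions within 10 kb became 1 within 5 kb, 16 within 20 kb, 6 at a −log10 q of at least 10, and 6 when a peak of both replicates was required. Without the pseudocount, the mean at Glyma.03G242600 was 41.4 in place of 37.2, a rise beyond its small SD of 0.697. The other means rose as well, to 50.4 at Glyma.15G098500, 38.8 at Glyma.20G230100 and 33.5 at Glyma.19G240100. Each of these rises was smaller than the SD of its gene, although that at Glyma.15G098500 was the largest of all. All 4 genes kept a peak in both replicates under each of the 3 stricter rules. Since the intervals match these same peaks, presence itself was fixed in advance and only the stricter rules could fail. Glyma.15G098500 minus Glyma.20G230100 was 0.49 on the log2 scale without replicate 1 and 0.08 without replicate 2, and 0.11 over the lowest background. Glyma.03G242600 minus Glyma.19G240100 was 0.17 without replicate 1 and 0.50 without replicate 2, and 0.51 by −log10 p. The *ACP4* pair minus the *ACP3* pair was 0.35 without replicate 1, 0.03 without replicate 2 and 0.04 over the lowest background. The intervals that include the input reads were chosen after seeing the data and take the highest of several windows as a plain count. Since the copies were measured in the same libraries, their differences were also paired by replicate, an alternative added after seeing the data. Paired, the mean log2 differences were 0.29, 0.34 and 0.19 as before, positive in 2 of 2 replicates each, and an exact sign-flip permutation test gave p = 0.5 for each, the smallest it can give. With 2 replicates, no unpaired permutation p can fall below 0.333.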

Other observations

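The steps of the background also gave the scale between input and ChIP. In the window of 210 bp, 1 input read was worth 0.965 ChIP reads in replicate 1, and in the window of 194 bp it was worth 0.595 in replicate 2. The lowest background corresponded to 7.43 and 6.39 input reads per such window. At Glyma.03G242600 the 10 and 13 input reads at the summit were the highest estimate of background in both replicates, and this was the only one of the 4 genes for which the shortest window set both values. That window set the background of 37.8% of peaks in replicate 1 and 37.0% in replicate 2.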
